A study of Homo sapiens with 3 samples.

Results

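The genes described here are the stress-induced factors and regulators of the ATF4 pathway, the transcriptional arm of the integrated stress response. They were chosen by name, as ATF4, ATF3, DDIT3 (which encodes CHOP), CEBPB, TRIB3, PPP1R15A, DDIT4, SESN2, CHAC1 and NUPR1. The rule uses no measured value, but the choice was made with earlier results of these data known. The counts of these genes beside shares of all genes are therefore a description and not a test. Of these 10 genes, 9 were matched by symbol in a table of 16662 genes, and NUPR1 was not analysed here. All 9 passed the filter on low values, a mean level of 1 CPM or more over the libraries (CPM are reads scaled to a common library total), which 13879 genes passed.

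RNA was sequenced from H1975 cells, an established lung adenocarcinoma line, after transfection with a small interfering RNA (siRNA). There was 1 library of cells given siHHLA3-3, 1 of cells given siHHLA3-1 and 1 of cells given the control siRNA siNC. The siHHLA3 oligonucleotides are differently numbered siRNAs against HHLA3, and their own sequences are not used here. In every group the cells were transfected at about 70% confluency, kept for 6 h without serum and then for 24 h in medium with 10% serum, so the controls went through transfection and serum removal as well. With 1 library per group there was no replicate spread and no p-value for a single siRNA, and every difference describes these 3 libraries. The labels give each library a batch of its own, and batch and siRNA therefore cannot be told apart.

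In the integrated stress response, kinases that sense different stresses phosphorylate the translation initiation factor eIF2. Most protein synthesis then slows, while the mRNA of ATF4 is translated more, and ATF4 switches on genes for amino acid supply, redox balance and, through CHOP and ATF3, cell death or recovery. In lung cancer cells the pathway is known for maintaining serine and asparagine synthesis when nutrients run short. RNA levels report on the transcriptional output and not on eIF2 phosphorylation or ATF4 protein.

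All 9 are protein-coding genes in GENCODE 29, whose coordinates are on GRCh38 and not on the files' hg19. The transcription factors were ATF4 (ENSG00000128272) at chr22:39519695-39522685, ATF3 (ENSG00000162772) at chr1:212565334-212620777, CEBPB (ENSG00000172216) at chr20:50190734-50192689 and DDIT3 (ENSG00000175197) at chr12:57516588-57521737. The feedback regulators were TRIB3 (ENSG00000101255) at chr20:362835-397559 and PPP1R15A (ENSG00000087074) at chr19:48872392-48876057. The effectors were DDIT4 (ENSG00000168209) at chr10:72273920-72276036, SESN2 (ENSG00000130766) at chr1:28259527-28282491 and CHAC1 (ENSG00000128965) at chr15:40952962-40956519. DDIT3 lies on the minus strand and the other 8 on the plus strand.

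The library totals were 26950852 reads for siHHLA3-3, 35069930 for siHHLA3-1 and 32813003 for siNC. HHLA3, the targeted gene, was lower in both knockdown libraries. It stood at 0.735 CPM with siHHLA3-3 (20 reads, 95% Poisson interval 0.449 to 1.13), 1.55 CPM with siHHLA3-1 (55 reads, 1.17 to 2.02) and 5.99 CPM with siNC (192 reads, 5.17 to 6.89). Against siNC this was 8.15-fold lower for siHHLA3-3 (95% binomial interval 5.13 to 13.6) and 3.86-fold lower for siHHLA3-1 (2.85 to 5.31). CPM here are normalised with TMM factors, and all such intervals cover counting error only. The label of an epithelial line held: each of 6 epithelial markers lay between 358 and 1141 CPM in every library, with sums of 3047, 3980 and 3934 CPM for siHHLA3-3, siHHLA3-1 and siNC. Of 13 markers of other cell types, 4 were measured. CD14 and CD79A summed to 31.9, 43.2 and 27.8 CPM, CDH5 stood at 3.01, 19.2 and 7.95 CPM and COL1A1 at 10.9, 24.5 and 11.3 CPM in the same order of libraries. All 3 sums were highest with siHHLA3-1, an order that differs from that of the stress genes. Fewer cells of a type and less RNA per cell cannot be told apart in such bulk libraries.

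Promoter sequences are shown for the 3 of the 9 genes that stood furthest above siNC in the siHHLA3-3 library, with a short stretch of the ATF3 promoter, because their capitals mark letters that ATF and AP-1 factors are known to bind. They come from RefSeq (GRCh38.p14), which is not the build of the deposited table, and run 5′ to 3′ on the gene's own strand, from 250 bases before to 50 bases after the annotated start except for ATF3, where 30 bases of that window are shown. Capitals mark the C/EBP-ATF composite letters TGATGNAA (on the opposite strand in CHAC1), the AP-1 letters TGANTCA in DDIT3 and the cyclic AMP response element TGACGTCA in PPP1R15A.
CHAC1 (chr15:40953221-40953520, plus strand): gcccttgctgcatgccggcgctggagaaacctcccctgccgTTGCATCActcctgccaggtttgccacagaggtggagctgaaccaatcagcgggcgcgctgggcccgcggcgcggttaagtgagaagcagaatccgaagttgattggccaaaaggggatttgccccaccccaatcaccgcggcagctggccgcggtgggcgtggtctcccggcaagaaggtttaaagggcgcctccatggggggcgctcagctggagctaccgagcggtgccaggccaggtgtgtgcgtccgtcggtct
DDIT3 (chr12:57520465-57520764, minus strand): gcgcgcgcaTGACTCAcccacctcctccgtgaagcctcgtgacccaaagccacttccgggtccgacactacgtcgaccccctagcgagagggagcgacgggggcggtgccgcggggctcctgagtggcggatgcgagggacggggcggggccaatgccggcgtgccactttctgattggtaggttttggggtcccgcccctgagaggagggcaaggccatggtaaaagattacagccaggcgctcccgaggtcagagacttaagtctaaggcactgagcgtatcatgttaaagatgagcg
PPP1R15A (chr19:48872171-48872470, plus strand): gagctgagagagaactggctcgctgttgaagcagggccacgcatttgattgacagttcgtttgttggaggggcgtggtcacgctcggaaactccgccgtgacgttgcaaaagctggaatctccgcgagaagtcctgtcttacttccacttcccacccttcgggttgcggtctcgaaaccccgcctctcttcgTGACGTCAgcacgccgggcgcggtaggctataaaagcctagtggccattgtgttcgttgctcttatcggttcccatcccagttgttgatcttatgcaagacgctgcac
ATF3 (chr1:212565205-212565234, plus strand): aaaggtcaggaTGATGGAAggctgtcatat

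Both strands of such windows were searched, and all 9 genes had one. TGATGNAA, the sequence through which ATF4 paired with a C/EBP factor acts, was found in 2 of the 9 genes, CHAC1 and ATF3, at positions -209 and -191 relative to the start. The same letters were present in 4.46% of 27305 genes with a window, and in 15 of the 45 other ATF4 pathway genes that had a window under their listed symbol. The 15 include FGF21, whose level was not analysed here. TGACGTCA was found in 1 of the 9, PPP1R15A, at position -58, against 2.25% of all genes. TGANTCA was found in 1 of the 9, DDIT3, at position -241, against 9.37% of all genes. The CCAAT box, written CCAAT, was present in 6 of the 9 against 39.7% of all genes. TGACGTCA does not contain TGANTCA. These matches describe the windows only.

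All 9 stress genes were lowest with siNC, intermediate with siHHLA3-1 and highest with siHHLA3-3, an order that 14.9% of all genes kept followed. With siHHLA3-3, 6 of the 9 were at least 2-fold higher than with siNC on the log2(CPM + 1) scale, namely CHAC1, DDIT3, PPP1R15A, SESN2, TRIB3 and ATF3. Over all genes kept, 0.807% reached 2-fold upwards and 1.48% reached it downwards in that comparison. The median log2 ratio of the 9 genes was 1.36, beside -0.01 over all genes. With siHHLA3-1, 0 of the 9 reached 2-fold above siNC, beside 0.973% of all genes higher and 0.382% lower. The median of the 9 was 0.55 with siHHLA3-1, again beside -0.01 over all genes. No member was lower than siNC in either library, and both comparisons share the siNC library.

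**Figure D1:**
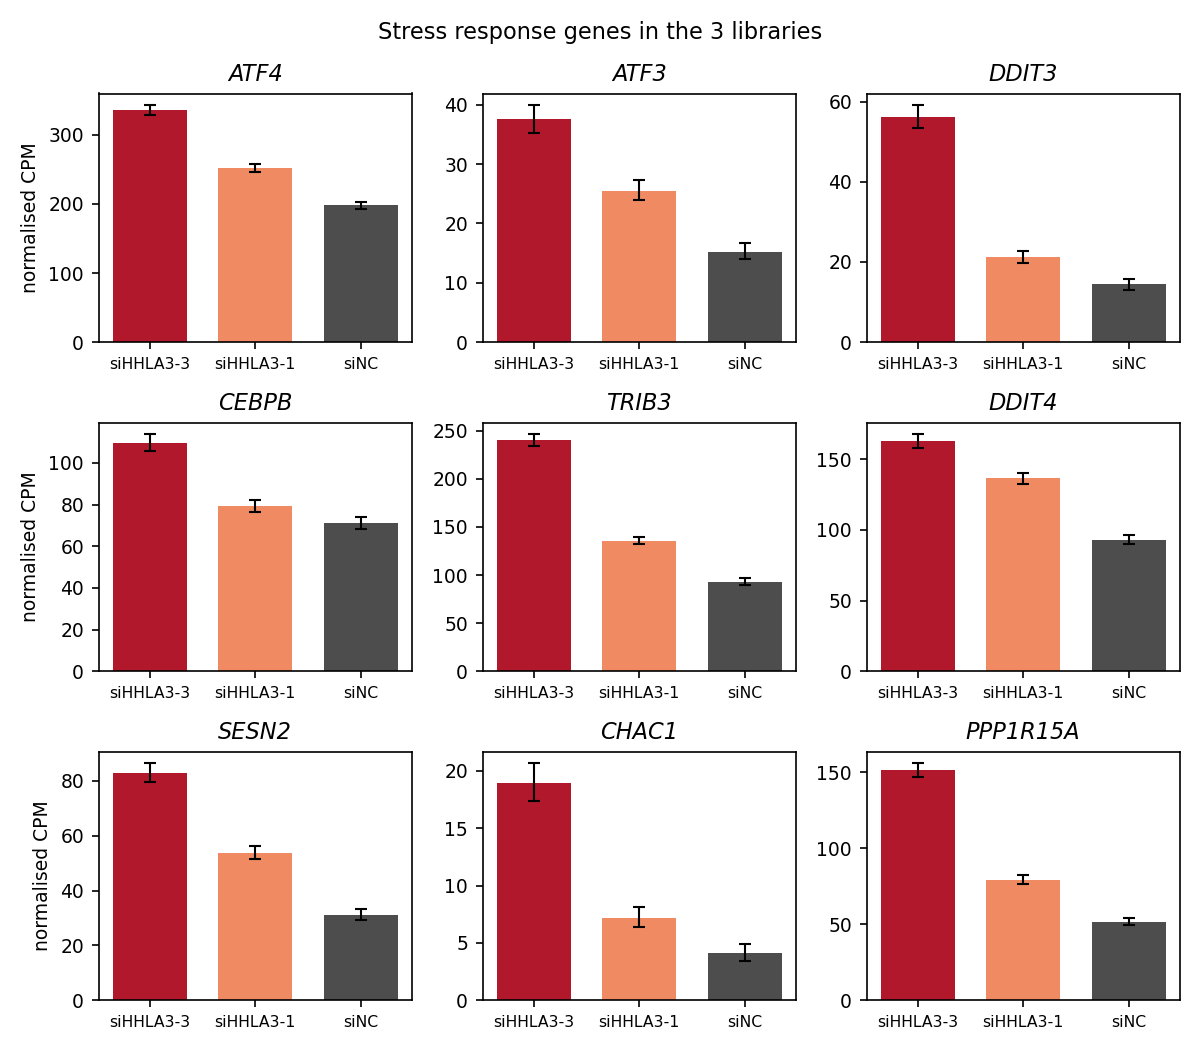
Levels of the 9 stress genes in the libraries given siHHLA3-3, siHHLA3-1 and siNC (1 library each), in TMM-normalised CPM on axes that start at 0. Bars are levels and error bars are exact 95% Poisson intervals, which cover counting error only. In every panel the siHHLA3-3 bar is highest and the siNC bar lowest, as for DDIT3 at 56.2, 21.1 and 14.4 CPM.

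ATF4, the transcription factor at the centre of the pathway, was the most abundant of the set. It had 335 CPM with siHHLA3-3 (interval 329 to 342), 252 CPM with siHHLA3-1 (247 to 257) and 198 CPM with siNC (193 to 203). The intervals of the 3 libraries did not overlap. Over siNC, the fold was 1.70 for siHHLA3-3 (1.64 to 1.75) and 1.27 for siHHLA3-1 (1.23 to 1.31). ATF4 was therefore below the 2-fold mark in both libraries. In the order of all 13879 genes by log2 ratio to siNC it ranked 239 from the top with siHHLA3-3 and 1882 with siHHLA3-1.

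DDIT3 encodes CHOP, a bZIP factor that ATF4 induces and that is known for driving cell death under prolonged stress. It had 56.2 CPM with siHHLA3-3 (1529 reads, interval 53.4 to 59.0), 21.1 CPM with siHHLA3-1 (751 reads, 19.7 to 22.7) and 14.4 CPM with siNC (462 reads, 13.1 to 15.8). The siHHLA3-3 library stood far above the other libraries, which lay closer to each other. The fold over siNC was 3.90 with siHHLA3-3 (3.51 to 4.34), which ranked 12 of 13879, and 1.47 with siHHLA3-1 (1.31 to 1.65), which ranked 918. Of its 1307 exonic bases in GENCODE 29, 355 (27.2%) are shared with MARS1 on the opposite strand and 58 (4.44%) with MBD6, also opposite. AC022506.1, on the same strand as DDIT3, shares 105 (8.03%) and was not analysed here. Whether reads were counted by strand is not stated, and reads of these genes cannot be told apart in the shared bases. MARS1, a methionyl-tRNA synthetase gene that is itself an ATF4 target, had 283, 238 and 210.4 CPM for siHHLA3-3, siHHLA3-1 and siNC. MBD6 had 116, 124 and 64.7 CPM in the same order. Neither MARS1 nor MBD6 differed by 2-fold or more from siNC, and the part of the overlapping genes in the DDIT3 count was not tested.

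ATF3 encodes a bZIP factor that ATF4 and other stress pathways induce. It had 37.5 CPM with siHHLA3-3 (interval 35.3 to 39.9), 25.5 CPM with siHHLA3-1 (23.9 to 27.3) and 15.3 CPM with siNC (13.95 to 16.7). The steps between libraries were more even than for DDIT3. Set against siNC, ATF3 was 2.46-fold higher in the siHHLA3-3 library (2.204 to 2.74) and 1.67-fold higher in the siHHLA3-1 library (1.496 to 1.87).

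CEBPB encodes a C/EBP factor that can pair with ATF4 and with CHOP. It had 109.7 CPM with siHHLA3-3 (interval 106 to 114), 79.2 CPM with siHHLA3-1 (76.3 to 82.2) and 70.9 CPM with siNC (68.0 to 73.9). This was the smallest difference of the set in both libraries, with a fold over siNC of 1.55 for siHHLA3-3 (1.46 to 1.63) and of 1.12 for siHHLA3-1 (1.06 to 1.18). With siHHLA3-1 its log2 ratio of 0.16 ranked 3983 of 13879.

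TRIB3 and PPP1R15A act as feedback regulators. TRIB3 is a pseudokinase that binds ATF4 and restrains it. It had 240.4 CPM with siHHLA3-3 (interval 235 to 246), 136 CPM with siHHLA3-1 (132 to 139.5) and 93.1 CPM with siNC (89.7 to 96.5). Relative to siNC the fold was 2.58 for siHHLA3-3 (2.47 to 2.70) and 1.46 for siHHLA3-1 (1.39 to 1.53). PPP1R15A, also called GADD34, brings protein phosphatase 1 to eIF2 and so ends the response. It had 151 CPM with siHHLA3-3 (147 to 156), 79.1 CPM with siHHLA3-1 (76.2 to 82.1) and 51.7 CPM with siNC (49.2 to 54.2). The PPP1R15A level exceeded that of siNC 2.93-fold in the siHHLA3-3 library (2.76 to 3.10) and 1.53-fold in the siHHLA3-1 library (1.44 to 1.63). For both genes the siHHLA3-1 library lay closer to siNC than to siHHLA3-3.

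DDIT4, SESN2 and CHAC1 are effectors. DDIT4, or REDD1, and the sestrin SESN2 both restrain the growth kinase complex mTORC1. DDIT4 had 163 CPM with siHHLA3-3 (interval 158 to 168), 136 CPM with siHHLA3-1 (133 to 140) and 93.2 CPM with siNC (89.9 to 96.6). Its folds over siNC were 1.75 for siHHLA3-3 (1.67 to 1.83) and 1.46 for siHHLA3-1 (1.40 to 1.53), and the 2 knockdown libraries lay nearer to each other for DDIT4 than for any other gene of the set. SESN2 had 82.9 CPM with siHHLA3-3 (79.5 to 86.4), 53.8 CPM with siHHLA3-1 (51.4 to 56.2) and 31.2 CPM with siNC (29.3 to 33.2). SESN2 exceeded siNC 2.66-fold in the siHHLA3-3 library (2.46 to 2.86) and 1.72-fold in the siHHLA3-1 library (1.59 to 1.86). Its log2 ratio with siHHLA3-1, 0.76 with 1 CPM added, was the highest of the 9. As a plain fold with siHHLA3-1, CHAC1 was higher, at 1.75 (1.41 to 2.18), with an interval that overlapped that of SESN2.

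CHAC1, which breaks down glutathione, was the least abundant of the set per length in every library and showed the largest fold. It had 19.0 CPM with siHHLA3-3 (516 reads, interval 17.4 to 20.7), 7.21 CPM with siHHLA3-1 (256 reads, 6.35 to 8.15) and 4.11 CPM with siNC (132 reads, 3.44 to 4.88). The fold over siNC was 4.61 with siHHLA3-3 (3.80 to 5.62), which ranked 10 of 13879, and 1.75 with siHHLA3-1 (1.41 to 2.18). With siHHLA3-3 the intervals of the folds of CHAC1 and DDIT3 overlapped. So did those of SESN2, TRIB3 and ATF3, of PPP1R15A and SESN2, and of DDIT4 and ATF4. Whether the folds of such genes differ was not tested.

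The counting interval of the fold lay above 1 for all 9 genes in each comparison. It did so for 27.6% of all genes with siHHLA3-3 against siNC and for 28.7% with siHHLA3-1 against siNC. At a 1.5-fold threshold, 9 of the 9 were higher with siHHLA3-3 than with siNC, beside 3.65% of all genes higher and 5.57% lower. At the same threshold 4 of the 9, SESN2, ATF3, CHAC1 and PPP1R15A, were higher with siHHLA3-1 than with siNC, beside 5.03% of all genes higher and 3.34% lower.

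**Figure D2:**
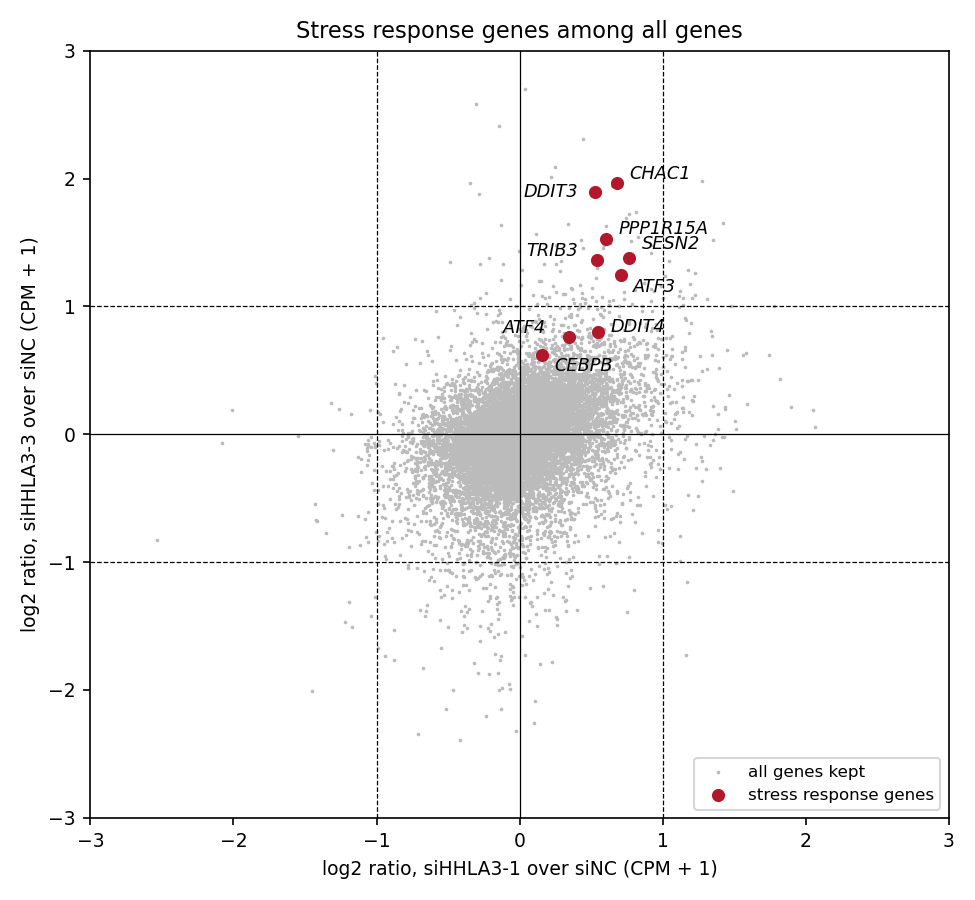
Log2 ratio of siHHLA3-3 over siNC (vertical) against that of siHHLA3-1 over siNC (horizontal), on log2(CPM + 1), with 1 library each and siNC shared by both axes. Red points are the 9 stress genes and grey points the other genes kept, of which 5 lie outside the plotted range; dashed lines mark 2-fold. The red points lie above 0 on both axes, with 6 beyond 2-fold on the vertical axis and 0 on the horizontal axis.

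The siHHLA3 libraries were also set against each other, a comparison without siNC. DDIT3 was 2.66-fold higher with siHHLA3-3 than with siHHLA3-1 (interval 2.43 to 2.90) and CHAC1 2.63-fold higher (2.26 to 3.07). These 2 of the 9 genes passed 2-fold, beside 0.757% of all genes higher and 2.12% lower. PPP1R15A was 1.91-fold higher (1.82 to 2.00) and TRIB3 1.77-fold higher (1.71 to 1.84) with siHHLA3-3 than with siHHLA3-1. SESN2 was 1.54-fold higher (1.45 to 1.64), and these 5 genes passed 1.5-fold, beside 4.4% of all genes higher and 7.82% lower. ATF3, CEBPB and ATF4 were 1.47-fold, 1.38-fold and 1.33-fold higher, and DDIT4 was 1.19-fold higher (1.15 to 1.24). The interval was above 1 for all 9, beside 31.6% of all genes, and the median log2 ratio of the 9 was 0.62, beside 0.00 over all genes. HHLA3 itself was 2.11-fold lower with siHHLA3-3 than with siHHLA3-1 (1.24 to 3.71).

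The siHHLA3 libraries were also fitted together as 2 samples against 1 siNC library, although they hold different siRNAs, so that the only residual spread is the difference between those siRNAs. In this fit edgeR's quasi-likelihood test called 0 of the 9 genes at a Benjamini-Hochberg adjusted p under 0.05. Their log2 fold changes ran between 0.41 and 1.66, and each had an adjusted p of 0.999929 by edgeR. Over all genes kept, edgeR called 0.00721%, which is 1 gene, lower with the knockdown libraries. With DESeq2 the log2 fold changes of the 9 genes ran between 0.43 and 1.68. Unadjusted p-values of either tool rest on the spread between siRNAs and not on replicates, so they cannot decide whether a gene differs. This fit has 1 residual degree of freedom and assumes that the lone siNC library varies like the others.

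Levels were compared between genes on the authors' deposited TPM, which scale for length. ATF4 was highest at 459 TPM with siHHLA3-3, 343 TPM with siHHLA3-1 and 259 TPM with siNC. DDIT4 was next, at 275, 229 and 150.5 TPM. TRIB3 had 261, 147 and 96.7 TPM and CEBPB 213, 153 and 132 TPM in the same order, so TRIB3 stood above CEBPB with siHHLA3-3 and below it in the other libraries. Below them came PPP1R15A at 176, 92.0 and 57.6 TPM and DDIT3 at 154, 57.6 and 37.7 TPM. SESN2 had 85.7, 55.3 and 30.9 TPM, close to DDIT3 with siHHLA3-1. ATF3 had 33.2, 22.5 and 12.9 TPM and CHAC1 33.04, 12.5 and 6.86 TPM. With siHHLA3-3, ATF3 and CHAC1 were closer than the width of their counting intervals. Among all listed genes by TPM, DDIT3 ranked 946 with siHHLA3-3, 2881 with siHHLA3-1 and 4176 with siNC.

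Genes with a pair of log2 ratios to siNC near those of DDIT3 and ATF3 were sought among the 10735 genes averaging 5 CPM or more, by Euclidean distance over these 3 libraries. Nearest to DDIT3 was HAS2, a hyaluronan synthase gene, at a distance of 0.13, with 36.4, 14.2 and 8.73 CPM for siHHLA3-3, siHHLA3-1 and siNC. CHAC1 followed at 0.17 and the cytokine gene IL6 at 0.27, with 26.4, 12.5 and 7.86 CPM. Nearest to ATF3 was RRAD, a small GTPase gene, at 0.13, with 23.4, 17.7 and 10.3 CPM. SESN2 followed at 0.15 and ZSWIM4 at 0.16, with 13.4, 10.6 and 5.61 CPM. Within a distance of 0.25 there were 2 genes around DDIT3 and 14 around ATF3.

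The rest of the pathway was described from lists of other ATF4 and CHOP partners and targets, of which 54 of 56 genes were measured and kept. With siHHLA3-3, 4 of the 54 were at least 2-fold higher than with siNC, namely ALDH1L2, ASNS, CTH and STC2, and 1, SESN3, was lower, beside 0.807% of all genes higher and 1.48% lower. In that comparison 39 of 54 lay above 0, beside 48.5% of all genes, with a median log2 ratio of 0.30. With siHHLA3-1, 3 of the 54 were at least 2-fold higher, namely BBC3, TXNIP and WARS1, and 0 were lower, beside 0.973% and 0.382% of all genes. There 27 of 54 lay above 0, close to the 48.2% of all genes, with a median of 0.00. Between siHHLA3-3 and siHHLA3-1, 1 gene was at least 2-fold higher (JDP2), 1 was lower (SESN3), beside 0.757% and 2.12% of all genes, and the median was 0.22. The single lower gene in each comparison with siHHLA3-3 is near the share over all genes. SESN3 and JDP2 were named after their values were seen.

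Upstream of ATF4, the eIF2 kinase genes lay on both sides of siNC. Their median log2 ratio was -0.29 with siHHLA3-3 and 0.14 with siHHLA3-1, over 4 genes. EIF2AK1, the heme-regulated kinase HRI, had 140 CPM with siHHLA3-3, 242 CPM with siHHLA3-1 and 247 CPM with siNC. EIF2AK3, the endoplasmic reticulum kinase PERK, had 28.2, 52.8 and 38.9 CPM in the same order, and was thus lowest with siHHLA3-3. EIF2AK2, or PKR, which senses double-stranded RNA, had 483, 532 and 429 CPM. EIF2AK4, or GCN2, which senses uncharged tRNA, had 58.2, 54.2 and 63.2 CPM. None of the kinase genes reached 2-fold in any comparison.

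Among 13 genes for eIF2, eIF2B and the phosphatase partners, the median log2 ratio was -0.09 with siHHLA3-3 and -0.18 with siHHLA3-1. PPP1CC, a catalytic subunit of protein phosphatase 1, was the one gene past 2-fold, with 90.6 CPM for siHHLA3-3, 162 CPM for siHHLA3-1 and 194 CPM for siNC. It was 2.14-fold lower with siHHLA3-3 than with siNC (interval 2.04 to 2.24). The eIF2B subunit gene EIF2B2 had 34.2, 26.9 and 44.4 CPM, and EIF2B5, another, had 91.0, 80.9 and 96.8 CPM. DNAJC3, an inhibitor of eIF2 kinases, had 35.0, 32.6 and 40.8 CPM. A list of 7 genes held the mitochondrial relay to HRI together with mitochondrial chaperones and proteases. Its medians were -0.08 with siHHLA3-3 and -0.20 with siHHLA3-1. DELE1, the messenger of that relay, had 49.99, 48.9 and 55.1 CPM. The mitochondrial chaperone genes HSPD1 and HSPE1 had 1101, 801 and 1134 CPM and 38.6, 30.5 and 40.8 CPM, and the protease gene CLPP had 74.2, 74.1 and 85.2 CPM. All of these named genes stood highest with siNC, but some other genes of the same lists did not. One of them, the relay gene OMA1, had 4.30, 7.83 and 6.20 CPM and was highest with siHHLA3-1. OMA1 was named after its values were seen. The naming rule favours genes that moved the same way with both siRNAs.

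The targets for amino acid synthesis stood higher with siHHLA3-3 than with siHHLA3-1 in 11 of 11 genes, with a median log2 ratio of 0.58 between them, beside 50.4% of all genes above 0. The smallest of the 11 ratios, that of CBS, was 0.01. With siHHLA3-3 all 11 of these genes had a ratio to siNC above 0, with a median of 0.50, and 5 of 11 did with siHHLA3-1, with a median of -0.03, beside 48.5% and 48.2% of all genes. ASNS, asparagine synthetase, had 4.11 CPM with siHHLA3-3 (112 reads), 1.80 CPM with siHHLA3-1 (64 reads) and 0.811 CPM with siNC (26 reads). As plain CPM ratios the folds over siNC were 5.08 for siHHLA3-3 (interval 3.29 to 8.11) and 2.22 for siHHLA3-1 (1.39 to 3.65), and the fold with siHHLA3-1 falls short of 2 once 1 CPM is added. ALDH1L2, a mitochondrial folate enzyme gene, had 11.1, 6.51 and 4.18 CPM. CTH, which makes cysteine from cystathionine, had 18.3, 9.12 and 7.61 CPM, with siHHLA3-1 close to siNC. CBS, which makes cystathionine, had 13.0, 12.9 and 8.26 CPM, nearly level in the knockdown libraries.

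Of 8 amino acid transporter genes, 6 had a ratio to siNC above 0 with siHHLA3-3 and 3 with siHHLA3-1, with medians of 0.50 and -0.05, beside 48.5% and 48.2% of all genes above 0. SLC1A5, a glutamine transporter gene, had 181, 103 and 101 CPM for siHHLA3-3, siHHLA3-1 and siNC, and the neutral amino acid transporter gene SLC1A4 had 31.9, 17.8 and 19.1 CPM. SLC6A9, a glycine transporter gene, had 37.6, 41.1 and 22.5 CPM and so stood above siNC in both. SLC7A11, the cystine transporter gene, had 48.8, 44.4 and 56.9 CPM and was below siNC in both. The next list held 11 genes, for tRNA synthetases and for the tRNA exporter XPOT. Of these, 8 were above 0 with siHHLA3-3 and 4 with siHHLA3-1, beside the same shares of all genes. The medians were 0.29 and -0.09. AARS1, for alanine, had 629, 383 and 344 CPM, and CARS1, for cysteine, had 75.5, 70.6 and 61.5 CPM. WARS1, for tryptophan, which interferon also induces, had 1249, 2089 and 1015 CPM and was highest with siHHLA3-1.

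Among 14 secreted and growth control targets, the medians were 0.06 with siHHLA3-3 and 0.03 with siHHLA3-1. STC2, a secreted glycoprotein gene, had 178, 96.8 and 84.0 CPM for siHHLA3-3, siHHLA3-1 and siNC. BBC3, which encodes the death-promoting protein PUMA and is also a p53 target, had 29.5, 43.2 and 16.5 CPM. TXNIP, a thioredoxin inhibitor gene, had 379, 626 and 296 CPM. STC2 was highest with siHHLA3-3, and BBC3 and TXNIP were highest with siHHLA3-1. SESN1, a sestrin gene like SESN2, had 3.86, 4.20 and 6.80 CPM and was highest with siNC. A list of 10 genes held other ATF, C/EBP and Tribbles genes together with JDP2, KLHL24, NFE2L1 and NFIL3. Its medians were 0.25 with siHHLA3-3 and 0.26 with siHHLA3-1. CEBPG, a C/EBP partner of ATF4, had 62.4, 43.1 and 40.6 CPM, while CEBPD had 38.1, 67.0 and 39.1 CPM and was highest with siHHLA3-1. TRIB2, a relative of TRIB3, had 31.9, 40.4 and 24.9 CPM, and the bZIP factor gene NFIL3 had 52.1, 44.4 and 36.5 CPM.

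The ATF6 and XBP1 arms, which handle misfolded proteins of the endoplasmic reticulum beside PERK, had none of 16 genes past 2-fold. Their median log2 ratio was -0.25 with siHHLA3-3 and -0.10 with siHHLA3-1. PDIA6, a protein disulfide isomerase gene, had 127, 183 and 195 CPM for siHHLA3-3, siHHLA3-1 and siNC, and the chaperone gene CALR had 601, 719 and 835 CPM. Both were lowest with siHHLA3-3. SDF2L1, a gene of endoplasmic reticulum protein folding, had 47.9, 47.6 and 60.4 CPM. ATF6, the factor that gives its arm its name, had 94.7, 76.2 and 69.5 CPM and was lowest with siNC. XBP1, named after its values were seen, had 178, 89.97 and 108 CPM.

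**Figure D3:**
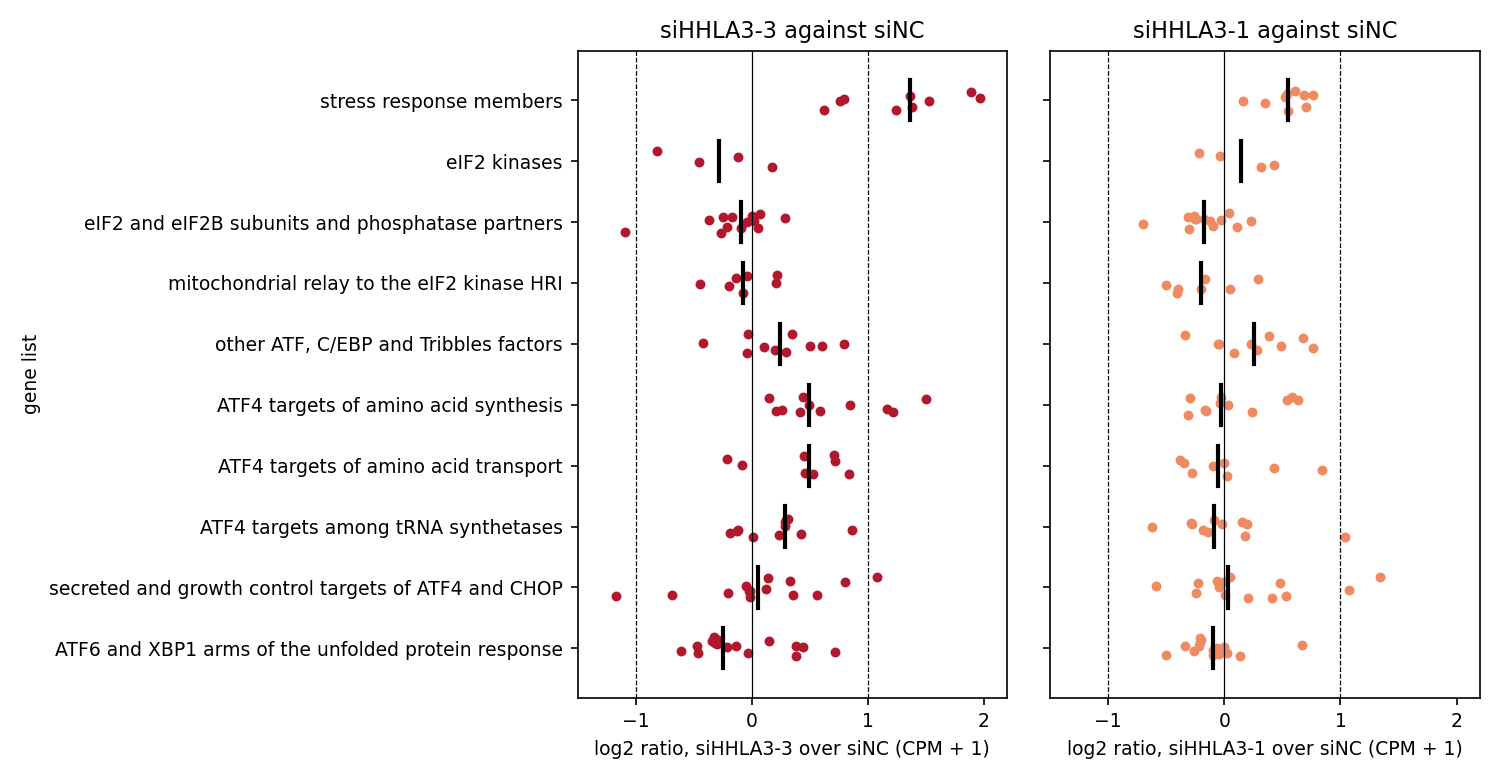
Log2 ratio to siNC, on log2(CPM + 1), of the 9 stress genes and of 9 lists of related genes, with siHHLA3-3 on the left and siHHLA3-1 on the right (1 library each). Points are genes, spread vertically for visibility, black bars are medians and dashed lines mark 2-fold. The medians of the stress genes are 1.36 and 0.55, and those of amino acid synthesis targets are 0.50 and -0.03.

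Sequence features that bear on translation were read from 1 annotated transcript per gene in GENCODE 29. Short reading frames before the main one are known to govern translation of ATF4 and CHOP. ATF4 had 7 upstream ATGs in a 5′ UTR of 882 bases, of which 2 open frames overlapping the main start. DDIT3 had 3, of which 1 overlaps, in 180 bases, and TRIB3 also had 3. PPP1R15A had 2, ATF3 and SESN2 had 1 each, and CEBPB, CHAC1 and DDIT4 had 0. At least 1 upstream ATG was present in 6 of the 9, beside 50.8% of 11805 genes, and an overlapping frame in 3 of the 9, beside 16.3%. RNA counts hold no measure of translation.

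The 7-letter runs that ranked first in an earlier scan of these same ratios were looked up in annotated 3′ UTRs, and the medians of genes that carry them are therefore a description only. CAGAATG, from the scan of siHHLA3-1, was present in 14.6% of 11797 genes, and their median log2 ratio with siHHLA3-1 was -0.10 against -0.01 for genes without it. GTGAACT, from the scan of siHHLA3-3, was present in 10.0% of genes, with a median of -0.23 with siHHLA3-3 against -0.00 without. Neither was present in any of the 9 stress genes. Among the genes of the other lists, CAGAATG was present in 12 of 120 and GTGAACT in 13 of 120.

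Other genes overlap or resemble some of the set. DDIT4 shares 847 of its 2058 exonic bases (41.2%) with the antisense gene DDIT4-AS1, and CEBPB shares 231 of 1956 (11.8%) with CEBPB-AS1. Those antisense genes were not analysed here. Whether their reads fell in the same counts cannot be told, because the strand setting is not stated. ATF4 has 4 named pseudogenes, of which ATF4P3 was measured, at 0.588 CPM with siHHLA3-3, 0.282 CPM with siHHLA3-1 and 0.249 CPM with siNC. These levels are small beside the 335, 252 and 198 CPM of ATF4.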

How the data were processed

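Total RNA of H1975 cells was sequenced in 3 libraries, 1 per siRNA. The authors deposited 1 table with 4 values per gene and library. The deposited counts are whole reads per gene, not normalised. The deposited CPM are these counts divided by a library total and rescaled, as the column names and values show. The deposited TPM and FPKM were scaled by the authors for length and depth. The submitters' processing notes name the build hg19 and, without versions, Bowtie2, TopHat2, HISAT and HISAT2. Counting program, annotation and strand setting: not given in the sources used here.

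Library totals were recovered as count over CPM, and counts were scaled with TMM factors (edgeR 4.0.16, R 4.3.3; 1.01, 1.01 and 0.978 for siHHLA3-3, siHHLA3-1 and siNC). Of the totals, 0.325%, 0.355% and 0.305% fell outside the listed genes, and 3 reads correspond to 0.110, 0.0845 and 0.0935 CPM. Ratios are log2 of (CPM + 1) over (CPM + 1), which understates differences of low genes; folds with intervals are plain CPM ratios. Genes averaging 1 CPM or more were kept and 2-fold was the threshold, with no p-value because each group has 1 library. Intervals are exact 95% Poisson (levels) and binomial (folds). Both siHHLA3 libraries against siNC were fitted with edgeR and DESeq2 1.42.0. Python 3.11.15, numpy 2.4.6, scipy 1.17.1, pandas 2.3.3 and matplotlib 3.10.9 were used. Only the ratios, the 2-fold calls and the binomial intervals were tested on simulated data. The simulated counts held counting error and no spread between replicates, and the edgeR and DESeq2 fits were not part of that test.

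The genes and all 12 lists were chosen with earlier results of these data known. Named are the chosen genes, HHLA3, and up to 4 genes per list with the largest absolute mean of the 2 log2 ratios to siNC. The 3 genes nearest to DDIT3 and to ATF3 in both ratios (mean of at least 5 CPM) are named as well. Some other genes are named to describe a list or after their values were seen. The levels of some listed genes, among them SLC43A1 and FGF21, were not analysed here. Alternatives were DESeq2 size factors, library totals, a pseudocount of 0.1, no filter, a filter of 5 CPM, deposited TPM or FPKM, and a 1.5-fold threshold.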

Additional observations from a re-analysis of the deposited data

How the results depend on the processing

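With DESeq2 size factors, library totals, a pseudocount of 0.1, deposited TPM or deposited FPKM, the ratios of all 9 stress genes stayed above 0 in every comparison. Of 189 recomputed ratios, which include the filter settings, 6 moved by more than counting error. These were ratios of ATF4 and TRIB3 only, all with library totals, TPM or FPKM. The filters cannot change a gene's own ratio. The lowest and highest log2 ratios of the 9 genes were 0.62 to 0.69 and 1.92 to 2.18 for siHHLA3-3 over siNC. They were 0.16 to 0.22 and 0.76 to 0.82 for siHHLA3-1 over siNC. No scaling moved the median of all genes by 0.1. At 1.5-fold, 4 stress genes were higher with siHHLA3-1 than with siNC and 5 were higher with siHHLA3-3 than with siHHLA3-1. Of the 54 other pathway genes, 13 were higher and 2 lower at 1.5-fold for siHHLA3-3 over siNC (all genes: 3.65% and 5.57%), 7 higher and 2 lower for siHHLA3-1 over siNC (5.03% and 3.34%), and 13 higher and 6 lower for siHHLA3-3 over siHHLA3-1 (4.4% and 7.82%). For siHHLA3-3 over siHHLA3-1, a pseudocount of 0.1 gave 2 higher and deposited FPKM 0 higher. For siHHLA3-3 over siNC, deposited FPKM gave 2 higher in place of 4. A mean of at least 5 CPM gave 3 higher there, since ASNS was left out. For siHHLA3-1 over siNC a pseudocount of 0.1 gave 4 higher in place of 3. With a mean of at least 5 CPM, deposited TPM or deposited FPKM, 0 pathway genes were lower in either comparison, since SESN3 was left out or was below 2-fold; FPKM and TPM also change what 1 added unit weighs. No paired analysis was possible because each group has 1 library, and no library could be left out. Read counts were low for ASNS (26 with siNC) and HHLA3 (20 with siHHLA3-3), and ATF4P3 stood at 0.249 CPM with siNC, where 3 reads make 0.0935 CPM.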

Other observations

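Lists outside the ATF4 pathway gave the following values. A list of 8 heat shock protein genes included the co-chaperone gene BAG3. All 8 had a ratio to siNC below 0 with each siRNA, and 0 were 2-fold lower. The medians were -0.29 with siHHLA3-3 and -0.25 with siHHLA3-1. Of all genes, 48.5% and 48.2% were above 0, and both comparisons share the siNC library. The chaperone gene HSPA8 had 1326 CPM with siHHLA3-3, 1116 CPM with siHHLA3-1 and 1782 CPM with siNC. HSP90AA1 had 3193, 2350 and 3504 CPM in the same order, and HSPB1 had 667, 984 and 1104 CPM. The co-chaperone gene BAG3 had 108, 120 and 144 CPM.

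Among 9 AP-1 and EGR genes, the medians were 0.09 with siHHLA3-3 and 0.31 with siHHLA3-1. FOSL1, which encodes the AP-1 subunit FRA-1, had 347, 136 and 165 CPM for siHHLA3-3, siHHLA3-1 and siNC, 2.10-fold higher with siHHLA3-3 than with siNC (interval 2.03 to 2.18). EGR1 had 43.1, 26.1 and 23.0 CPM, IER2 71.3, 65.2 and 51.2 CPM and IER3 33.2, 26.3 and 19.1 CPM. Among 9 p53 target genes the medians were -0.04 with siHHLA3-3 and -0.00 with siHHLA3-1. BTG2, a growth-restraining gene, had 13.3, 16.3 and 6.70 CPM, and CDKN1A, the cell cycle inhibitor p21, had 208, 167 and 156 CPM. ZMAT3 had 7.93, 9.43 and 10.9 CPM and RRM2B had 40.8, 29.9 and 41.1 CPM.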
